A study of Homo sapiens with 4 samples.

Results

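Replication timing along human chromosome 20 was described from the states of single S-phase cells. The members are all 80 kb bins of chromosome 20 in a table of state codes by bin and cell, 695 of the 27704 bins in the table. They cover 55.6 Mb between positions 80001 and 60480000, with the widest stretch without bins from 26320001 to 29440000, which was taken to separate the short arm (20p, 312 bins) from the long arm (20q, 383 bins). The part of 20q past the last bin was not analysed here. Coordinates are those of the table, and the submitters' processing notes name hg19 and GRCh37 as the build.

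Cells of HCT116, a human colorectal cancer line, were compared with cells of DKO1, the HCT116 derivative in which DNMT1 and DNMT3B are knocked out. Both lines grew in the same medium with serum. Living cells were sorted by DNA content, early, mid and late S-phase fractions were mixed in equal numbers, and the mixture entered a droplet copy-number system from a stock of 500 cells per uL. Each line is represented by 1 S-phase library, with 322 HCT116 and 207 DKO1 cells and 0 shared cell barcodes, so the library and the genotype cannot be told apart. The labels give DKO1 as a line and do not say how many clones it comes from. A G1 library of each line, from a stock of 60 cells per uL, was not analysed here. No test between the lines was made, cells are not replicates, and the exact (Clopper-Pearson) 95% intervals below cover counting error of cells only.

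DNA replication starts at many origins that fire in a loose order, so a chromosome is copied in domains, long stretches that replicate together. Early domains are mostly rich in genes and in open chromatin, late domains are mostly gene-poor, compact and near the nuclear lamina, and the stretches between them are crossed by forks travelling from early into late DNA. Late domains of cancer cells are also where DNA methylation is commonly reduced. DNMT1 copies methylation onto newly made strands and DNMT3B, whose gene lies on chromosome 20, methylates sites without a methylated partner strand.

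The codes come without a definition. Code 2 was taken to mean replicated and code 1 unreplicated, since 21 chromosomes ordered by their share of code 2 came close to their order by gene density (Spearman's rho of 0.858 for HCT116 and 0.857 for DKO1, a description across chromosomes that share the same cells). Code 0 was treated as not called. Progress of a cell through S phase is the percent of code 2 among codes 1 and 2 over the other autosomes, so that it holds no bin of chromosome 20. Its median was 52.4% in HCT116 (range 17.1 to 77.5%) and 48.6% in DKO1 (range 9.64 to 78.1%). Cells were placed in strata of 10 points of progress, and the 6 strata from 20 to 80% were weighted equally. From the earliest stratum to the latest, they held 33, 50, 59, 78, 82 and 17 HCT116 cells and 12, 41, 56, 48, 39 and 10 DKO1 cells. The standardised share of a bin averages, with that weighting, the percent of cells carrying code 2 there. Mean progress over the strata was then 50.05% in HCT116 and 50.01% in DKO1. Every bin of chromosome 20 was called in at least 99.1% of HCT116 cells and 96.1% of DKO1 cells.

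Chromosome 20 as a whole replicated to a similar extent in both lines at matched progress, with a standardised share of 57.5% in HCT116 and 58.0% in DKO1. The difference of 0.51 points turned to -0.66 without matching of progress and to -0.69 with only the cells in which code 0 took at most 1% of bins. The last setting, here and below, also kept only the strata from 30 to 70% progress. By stratum, the chromosome was 34.4, 42.6, 52.9, 61.8, 72.3 and 80.8% replicated in HCT116 and 37.3, 42.6, 52.6, 62.4, 73.1 and 79.9% in DKO1. The largest gap, 2.94 points in the first stratum, rests on 12 DKO1 cells. In both lines the chromosome ran ahead of the rest of the genome in every stratum. Among 21 chromosomes with at least 100 bins its share ranked 6 from the highest in HCT116 and 5 in DKO1, and its density of protein-coding genes ranked 6 of 22.

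The long arm replicated before the short arm in both lines. The share of 20p was 47.5% in HCT116 and 49.3% in DKO1, and that of 20q was 65.6 and 65.0%. Bins were called early, middle or late by 3 equal classes of all autosomal bins, with limits at a mean share of 27.3 and 71.9%. On 20q, 51.4% of bins were early, 27.7% middle and 20.9% late, against 28.8, 41.0 and 30.1% on 20p. The order of bins along the chromosome was largely shared, with Pearson's r of 0.949 between the lines across the 695 bins, which are neighbours and not independent, and a median absolute difference of 5.28 points.

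**Figure D1:**
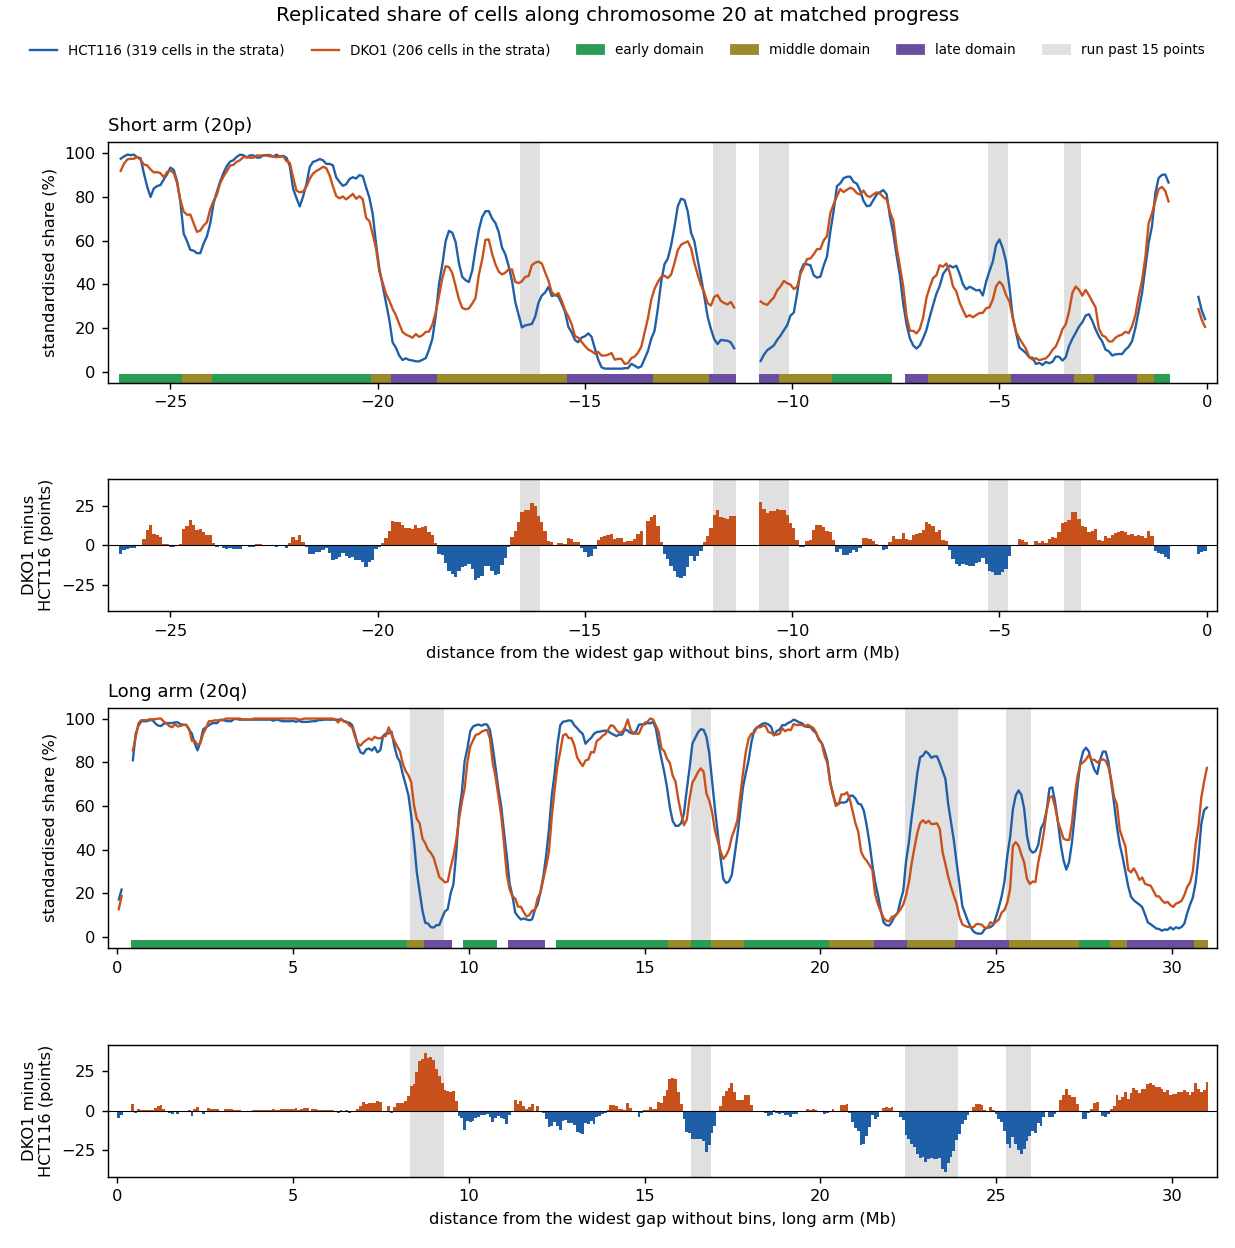
Standardised share of cells in which each 80 kb bin was replicated (%, upper panel of each arm) and the DKO1 minus HCT116 difference (points, lower panel), against distance from the widest gap without bins (Mb). The strips mark early, middle and late domains and the grey bands the runs of shifted bins. The profiles of the lines rise and fall together, and the deepest drop of DKO1 lies within the 49680001 to 56800000 part of 20q.

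By class mean, the largest difference between the lines was in late bins, while single bins differed most often in the middle class. Of the 234 middle bins, 24 were higher and 49 lower in DKO1 by at least 15 points, and of the 174 late bins 29 were higher and 3 lower. Of the 287 early bins, 0 were higher and 7 lower. Of all autosomal bins, of every class together, 6.86% were higher and 7.31% lower by that size. Late bins averaged 10.9% and early bins 92.3% in HCT116. This left late bins little room to fall by 15 points and early bins little room to rise, which shapes these counts. Over the 174 late bins the share averaged 10.9% in HCT116 against 17.9% in DKO1, which is 6.96 points more, and 140 of the bins were higher in DKO1. With only cells that had at most 1% of code 0 it was 4.02 points more. By stratum they were 0.245, 0.736, 2.71, 7.91, 17.5 and 36.5% replicated in HCT116 and 3.496, 4.92, 9.28, 14.8, 29.8 and 45.0% in DKO1. DKO1 was higher in each of the 6 strata, by 3.25 to 12.3 points. The 287 early bins were at 92.3 and 91.0%, a difference of -1.30 points, and the 234 middle bins at 49.3 and 47.3%, a difference of -2.06 points. Middle bins went from 5.42 points higher in DKO1 in the first stratum to 7.51 points lower in the last, so they filled in over a longer part of S phase in DKO1. The spread of the shares across bins was smaller in DKO1, with an SD of 31.7 points against 34.5 points in HCT116. The late-bin difference was larger on 20p (8.04 points, 85 of 94 bins higher) than on 20q (5.68 points, 55 of 80 bins higher). Among the 21 chromosomes the late-bin difference of chromosome 20 ranked 7 from the highest, within the range of the others (1.95 to 10.5 points, median 5.42), so it does not set this chromosome apart.

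A domain was drawn as at least 5 neighbouring bins of 1 class in the running median over 5 bins of the mean of both lines. This gave 38 domains, 19 on each arm, with 97.0% of the bins (674). The other 21 bins lay in 6 shorter runs and are not described as domains. There were 10 early domains of 0.4 to 7.84 Mb, 16 middle domains of 0.4 to 3.12 Mb and 12 late domains of 0.48 to 2.08 Mb. The early domains covered 22.96 Mb and the late domains 13.6 Mb. Across the 38 domains, the shares of the lines correlated with a Pearson coefficient of 0.941 and a Spearman coefficient of 0.915, a description over domains of the same cells. DKO1 was higher in 10 of 12 late domains, in 10 of 16 middle domains and in 2 of 10 early domains. As for bins, late domains had more room to rise than to fall, and early domains the reverse. The late domains were also less alike in DKO1, where their shares ran from 7.56 to 32.9%, than in HCT116, where they ran from 7.87 to 15.2%.

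**Figure D2:**
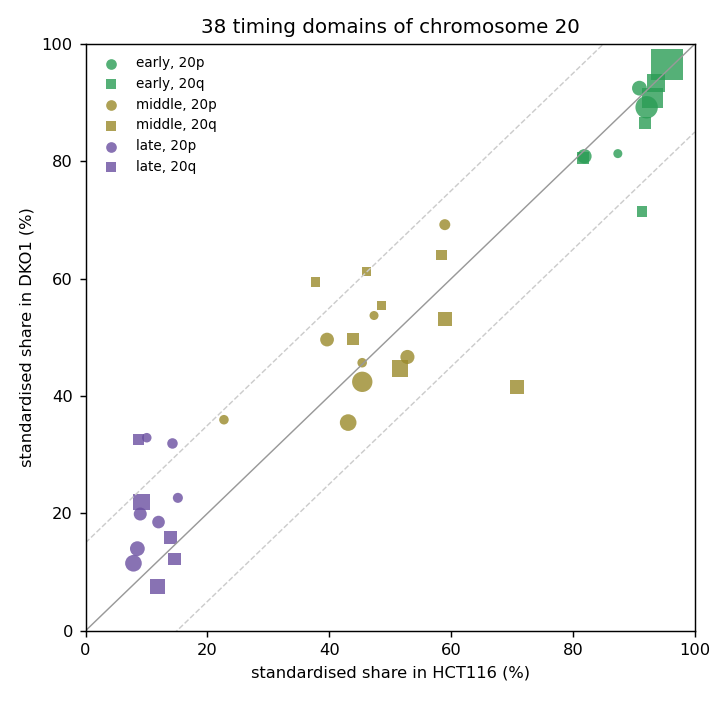
Standardised share of the 38 domains in HCT116 (x axis, %) and DKO1 (y axis, %), with circles for 20p, squares for 20q and area in proportion to the number of bins. The solid line marks equality and the dashed lines 15 points on either side. Late domains lie mostly above the line, and the early and middle domains farthest below it are both on 20q, at 91.3 and 71.5% and at 70.9 and 41.5%.

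The earliest part of the chromosome is a single block near the centromeric gap on 20q. Between the gap and this block lie 2 late bins, chr20:29440001-29600000, with a mean share of 19.5% in HCT116 and 15.8% in DKO1. The block, chr20:29840001-37680000, is the longest early domain (97 bins, 7.84 Mb) and the earliest of 20q, with a share of 95.5% in HCT116 and 96.5% in DKO1. In the stratum of 20 to 30% progress it was already 84.3% replicated in HCT116 and 90.7% in DKO1. Of the cells at 40 to 60% progress (mid-S cells, 137 HCT116 and 104 DKO1, mean progress 51.1 and 49.1%), it was whole, meaning at least 90% of its called bins were replicated, in 134 HCT116 and 98 DKO1 cells. By the mean of both lines, the earliest domain of 20p lay at the other end of the table, chr20:80001-1600000, with shares of 90.9 and 92.5%. In HCT116 alone the neighbouring early domain chr20:2320001-6160000 was ahead of it, at 92.1% (89.2% in DKO1). The domains at 29840001 and 80001 were the 2 early domains with a higher share in DKO1, by 1.02 and 1.57 points. The difference of the second was 0.459 points without matching of progress. That of the first turned to -0.0874 points with only cells of at most 1% code 0, a setting that also left out the stratum of 20 to 30%. In that stratum its difference was 6.37 points in the main setting, with 12 DKO1 cells. In the first stratum, 145 bins of the chromosome were replicated in at least 80% of HCT116 cells and 144 in at least 80% of DKO1 cells. Of these, 124 were shared, which is 85.5% of the HCT116 bins and 86.1% of the DKO1 bins. The long domain near the gap held 70 of the HCT116 bins and 79 of the DKO1 bins.

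Ranked by the mean of both lines, the latest domains of the arms moved in opposite directions between the lines. This depends on the ranking, since by HCT116 alone the latest domain of each arm was higher in DKO1. The latest domain of 20p in both lines, chr20:10880001-12960000, is also the longest late domain (25 bins, 2.08 Mb). It had a share of 7.87% in HCT116 and 11.5% in DKO1. By stratum it was 0, 0.4, 2.31, 6.08, 15.4 and 23.1% replicated in HCT116 and 0, 3.78, 3.97, 10.2, 12.7 and 38.4% in DKO1, so DKO1 was lower at 60 to 70% and higher at 70 to 80%, where the values rest on 17 and 10 cells. The difference of 3.64 points ran from 0.146 points, with only cells of at most 1% code 0, to 7.94 points, when a bin had to be called in 99% of cells to be used. The first setting used the strata from 30 to 70% and the second those from 30 to 90%. By the mean of both lines, the latest domain of 20q was chr20:53280001-54800000 (19 bins), with shares of 11.9 and 7.56%. In HCT116 alone chr20:38160001-38960000 (8.65%) and chr20:58160001-60080000 (9.20%) were later, and both were higher in DKO1. The difference of the domain at 53280001 was -4.32 points and ran from -6.40 to -2.61 points. The last was with code 0 counted as unreplicated and only the strata from 20 to 70%. By stratum this domain was 0, 1.89, 4.34, 10.999, 23.7 and 30.3% replicated in HCT116 and 5.26, 3.68, 2.94, 8.66, 12.7 and 12.1% in DKO1. In mid-S cells it was untouched, with at most 10% of its bins replicated, in 87 of 137 cells of HCT116 (63.5%) and in 89 of 104 of DKO1 (85.6%). It was 1 of only 2 late domains of chromosome 20 with a lower share in DKO1, and the other, chr20:50960001-51920000, was at 14.6 and 12.2%. In the last stratum, 43 bins were replicated in at most 20% of HCT116 cells and 38 in at most 20% of DKO1 cells. They shared 24 bins, 55.8% of the HCT116 bins and 63.2% of the DKO1 bins, but these lists rest on 17 and 10 cells.

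**Figure D3:**
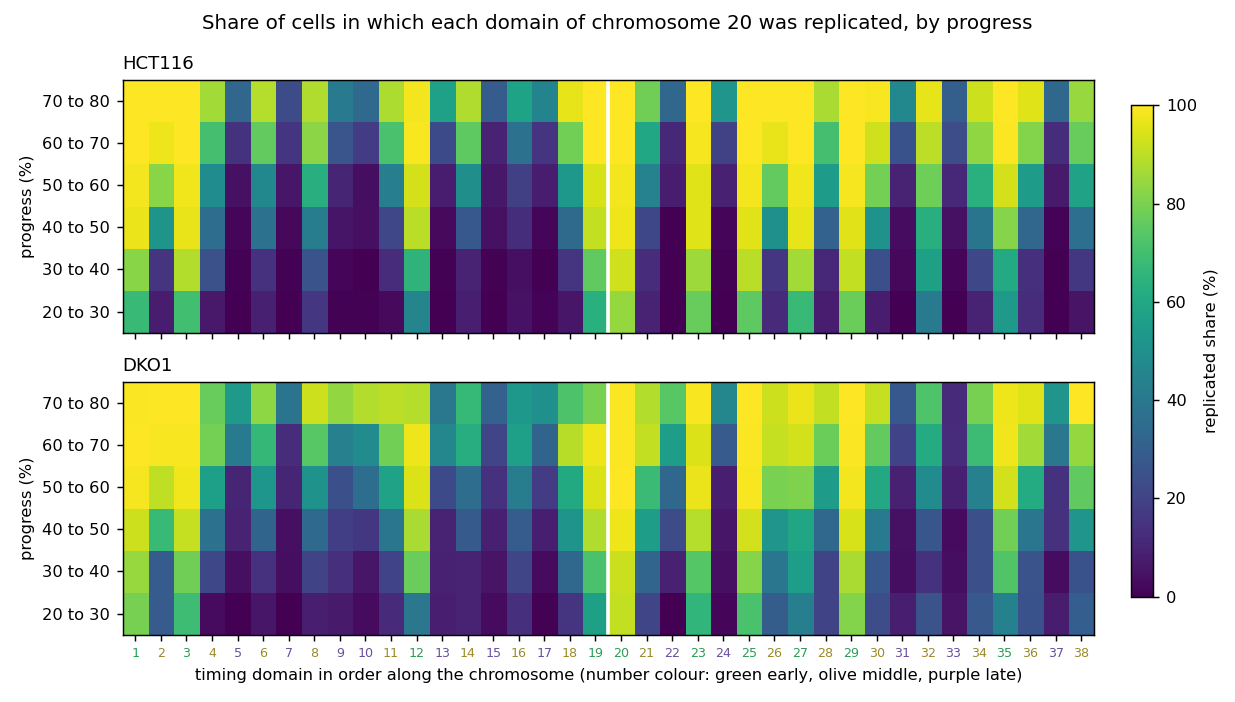
Percent replicated (colour, %) of each of the 38 domains, in order along the chromosome (x axis, white line between the arms), in each stratum of progress (y axis, %) for HCT116 (top) and DKO1 (bottom). Domain 20, the block near the gap, is bright from the first stratum, and domain 32 is brighter in HCT116 than in DKO1 in every stratum.

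Replication states of single mid-S cells showed how the domains were filled. Early domains were whole in 89.6% of the domain-by-cell observations in HCT116 and 79.5% in DKO1, and partly replicated in 8.69 and 16.9%. Middle domains were partly replicated in 65.1% in HCT116 and 54.95% in DKO1, and both whole (15.9 and 22.7%) and untouched (19.0 and 22.3%) more often in DKO1. Late domains were untouched in 83.3 and 71.7%, partly replicated in 16.0 and 23.5% and whole in 0.672 and 4.84%. Middle domains of a DKO1 cell were thus more often copied entirely or not at all, while early domains were more often incomplete and late domains more often begun. Along chromosome 20, the state switched between neighbouring bins a median of 36 times in an HCT116 mid-S cell (quartiles 32 and 39) and 32 times in a DKO1 mid-S cell (quartiles 30 and 36).

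**Figure D4:**
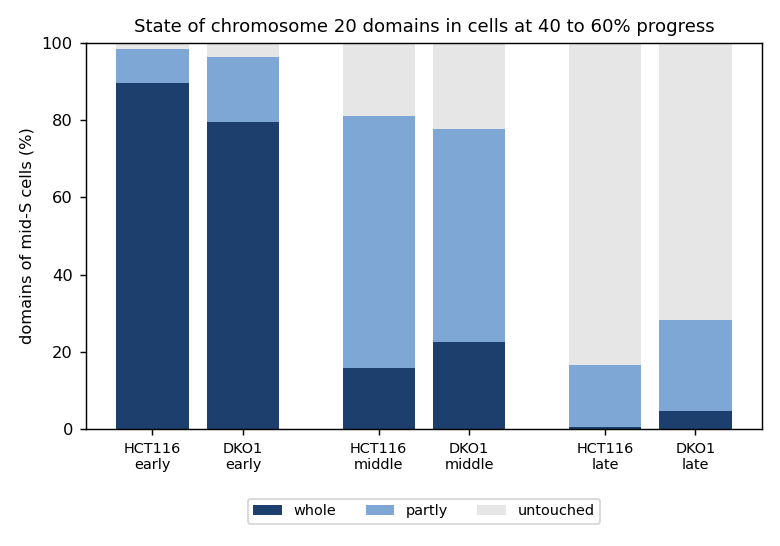
Percent of domain-by-cell observations (y axis) in mid-S cells, 40 to 60% progress, in which an early, middle or late domain of chromosome 20 was whole (at least 90% of bins replicated), untouched (at most 10%) or partly replicated, for each line. The whole part of early domains is 89.6% in HCT116 and 79.5% in DKO1, and the untouched part of late domains 83.3 and 71.7%.

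The 3 domains with the largest increase in DKO1 were late or middle domains, and a pair of them lay next to each other just distal to the long early block. Size chose these domains, and those with the largest decreases below, so their counts and intervals are descriptions. The late domain chr20:38160001-38960000 (10 bins) had a share of 8.65% in HCT116 and 32.6% in DKO1. By stratum it was 0, 0, 0.172, 7.46, 11.3 and 32.9% replicated in HCT116 and 0, 9.02, 23.04, 33.5, 55.9 and 74.0% in DKO1. Apart from the first stratum, where it was at 0 in both lines, DKO1 was higher throughout. It was mostly replicated, with over 50% of its bins, in 2 of 136 HCT116 mid-S cells (1.47%, 0.179 to 5.21) and 25 of 104 DKO1 mid-S cells (24.0%, 16.2 to 33.4). Its neighbour on the centromere side, the middle domain chr20:37680001-38160000 (6 bins), had shares of 37.8 and 59.4%. A logistic curve of the replicated fraction of this domain per cell crossed 50% at a progress of 59.5% in HCT116 and 43.8% in DKO1. The bin with the largest increase on the chromosome, chr20:38160001-38240000, lay at their junction and had shares of 6.60 and 42.9%.

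On 20p, the late domain chr20:15520001-16000000 (6 bins) had shares of 10.0 and 32.9%. By stratum it was 0.521, 0.333, 3.95, 3.68, 17.5 and 34.3% replicated in HCT116 and 2.78, 6.10, 16.0, 36.1, 48.1 and 88.3% in DKO1. It was mostly replicated in 3 of 136 HCT116 mid-S cells (2.21%, 0.457 to 6.31) and 23 of 102 DKO1 mid-S cells (22.5%, 14.9 to 31.9). It is the middle member of 3 neighbouring domains, chr20:14320001-17280000, that were all higher in DKO1. Over these 30 bins the share was 27.0 and 41.6%, and 28 bins were higher.

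The largest decrease of any domain was on 20q, at chr20:51920001-53280000 (17 bins), a middle domain that peaks between late domains on both sides. Its share was 70.9% in HCT116 and 41.5% in DKO1, 29.4 points less. By stratum it was 41.2, 56.8, 63.0, 78.1, 90.03 and 96.2% replicated in HCT116 and 25.5, 14.7, 26.9, 48.3, 61.4 and 72.4% in DKO1. The logistic curve of its replicated fraction per cell crossed 50% at a progress of 33.6% in HCT116 and 58.3% in DKO1. In mid-S cells it was mostly replicated in 108 of 137 cells of HCT116 (78.8%, 71.0 to 85.3) and in 37 of 104 of DKO1 (35.6%, 26.4 to 45.6), and untouched in 5 and 35 cells. The bin with the largest decrease on the chromosome, chr20:52960001-53040000, lay in its distal part, with shares of 72.3 and 33.4%.

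The other decreases were smaller. The early domain chr20:45760001-46320000 (7 bins) fell out of the pattern of the early class, with shares of 91.3 and 71.5%. By stratum it was 68.0, 86.3, 96.1, 97.8, 99.7 and 100% replicated in HCT116 and 42.9, 55.7, 58.9, 80.9, 93.2 and 97.1% in DKO1, so the lines differed most before 50% progress and came together afterwards. It was whole in 127 of 137 HCT116 and 52 of 103 DKO1 mid-S cells. On 20p the middle domain chr20:19600001-21600000 (25 bins) had shares of 43.1 and 35.5%. Its lines were within 2 points of each other in the first 3 strata, and DKO1 was lower in the 3 later ones. The difference of -7.62 points was -4.34 points with code 0 counted as unreplicated, a setting that also left out the stratum of 70 to 80%. In that stratum the difference was -21.4 points in the main setting.

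Shifted bins were also taken without regard to domains, as runs of at least 5 bins that all differed in 1 direction by at least 15 points. On chromosome 20, 53 bins (7.63%) were higher in DKO1 by at least 15 points, against 6.86% of all autosomal bins, and 59 bins (8.49%) were lower, against 7.31%. Runs held 39 of the higher bins (5.61%, against 5.22% of all autosomal bins) and 41 of the lower bins (5.90%, against 5.49%). These shares are near the background, so chromosome 20 was shifted about as often as the rest of the genome. There were 9 runs, 5 higher and 4 lower in DKO1, and since size chose them their differences are descriptions.

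The 5 runs higher in DKO1 lay in late or low-middle DNA, and 4 of them were on 20p. At chr20:9760001-10240000 (6 bins), a dip in the HCT116 profile, the share was 23.6 and 46.2%, and the run was mostly replicated in 14 of 136 HCT116 and 46 of 103 DKO1 mid-S cells. Its 5 neighbouring bins on the left were at 40.3 and 44.1% and those on the right at 35.9 and 41.6%, so the dip of HCT116 was absent from DKO1. At chr20:14400001-14960000 (7 bins) the share was 13.5 and 32.2%, with 11 of 137 and 18 of 103 mid-S cells mostly replicated, a count whose intervals overlap (4.08 to 13.9% and 10.7 to 26.2%). At chr20:15520001-16240000 (9 bins) it was 13.0 and 35.4%, with 3 of 136 and 27 of 103 cells. No bin of the table lies between these runs. At chr20:22880001-23280000 (5 bins) the share was 14.4 and 32.4%, with 14 of 136 and 29 of 103 cells, and its difference of 18.0 points was 11.1 points with only cells of at most 1% code 0. The run on 20q, chr20:37760001-38720000 (12 bins, 17.0 and 43.8%), follows the distal edge of the long early block, and 3 of 137 HCT116 and 38 of 104 DKO1 mid-S cells had mostly replicated it.

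Of the 4 runs lower in DKO1, 3 were on 20q. The run chr20:45760001-46320000 is the early domain described above. The longest run of the chromosome, chr20:51840001-53360000 (19 bins), holds the domain with the largest decrease and had shares of 67.0 and 38.9%. From the first stratum to the last it was mostly replicated in 11 of 33, 30 of 50, 35 of 59, 63 of 78, 78 of 82 and 17 of 17 HCT116 cells, and in 3 of 12, 4 of 40, 14 of 56, 22 of 48, 28 of 39 and 8 of 10 DKO1 cells. It stood 54.3 points above its 5-bin flanks in HCT116 and 30.2 points above them in DKO1, where the flanks were late as well. At chr20:54720001-55440000 (9 bins) the share was 53.8 and 32.0%, and 79 of 137 HCT116 mid-S cells (57.7%, 48.9 to 66.1) and 16 of 103 DKO1 mid-S cells (15.5%, 9.15 to 24.0) had mostly replicated it. Its difference of -21.7 points was -34.8 points with only cells of at most 1% code 0. On 20p, chr20:21040001-21520000 (6 bins) was at 53.6 and 36.2%, with 76 of 136 and 35 of 102 cells.

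**Figure D5:**
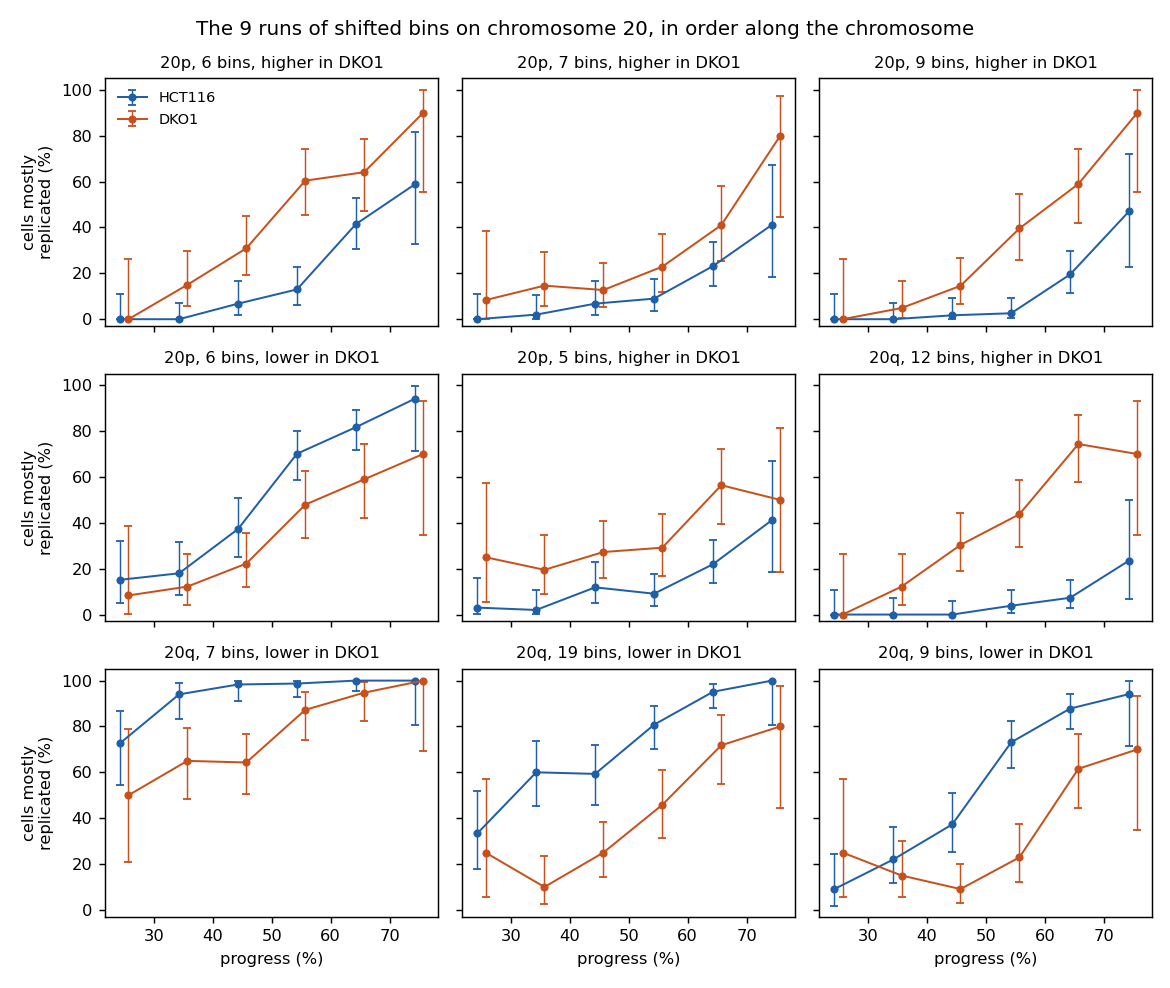
Percent of cells in which each of the 9 runs was mostly replicated (y axis) against progress (x axis, %), with exact 95% intervals of the cell counts, for HCT116 (blue) and DKO1 (orange). In the 19-bin run of 20q, HCT116 rises from 11 of 33 cells in the first stratum to 17 of 17 in the last, and DKO1 from 3 of 12 to 8 of 10.

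Neighbouring domains moved together in several places, which were picked out after their values were seen. On distal 20q, the 5 domains from 49680001 to 56800000 (89 bins, 7.12 Mb) were all lower in DKO1, with a share of 43.1% in HCT116 and 33.3% in DKO1 and 63 of 89 bins lower. With code 0 counted as unreplicated, 1 of the 5, the late domain chr20:50960001-51920000, became 0.0142 points higher. That setting also left out the stratum of 70 to 80%, where the difference of this domain was -19.1 points in the main setting. Next to this stretch lay the early domain chr20:56800001-57680000, at 81.7% in HCT116 and 80.6% in DKO1. Past that, the last 3 domains of the table, from 57680001 to 60480000, were all higher, with shares of 21.2 and 33.3% and 35 of 35 bins higher. In this last stretch the share of code 0 was high in DKO1, at 2.76% of calls between 55 and 60 Mb, against 0.140% in HCT116, and its part in the result was not tested. The late domain of this stretch, chr20:58160001-60080000, was at 9.20 and 21.99%, and its difference of 12.8 points was 10.5 points with only the 316 HCT116 and 191 DKO1 cells without code 0 on chromosome 20, and 7.62 points with only cells of at most 1% code 0 in all bins.

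Borders were placed where the running median of a line's share crossed 50%. HCT116 had 28 borders on chromosome 20 and DKO1 22, and all 22 of DKO1 were paired with an HCT116 border of the same direction within 1000 kb. Of the pairs, 7 lay at the same bin edge, 12 within 80 kb and 7 more than 200 kb apart, with a median absolute offset of 80 kb. The early side was longer in DKO1 at 6 borders and shorter at 9. The largest offset was 480 kb, on 20p, where a rising crossing inside a middle domain moved from 17120000 in HCT116 to 16640000 in DKO1. In the 3 bins from 16560001 to 16800000 HCT116 was at 49.3, 49.1 and 48.7% and DKO1 at 48.0, 51.5 and 51.8%. The size of this offset therefore depends on small differences near 50%. Beyond them HCT116 dipped, with 43.0% against 56.0% in DKO1 at chr20:16880001-16960000. At the distal edge of the long early block the fall moved outward by 240 kb, from 37840000 to 38080000. The part above 50% of the island around 52 Mb was shorter in DKO1 on both sides, its rise moving from 52000000 to 52240000 and its fall from 53200000 to 52800000. Every bin of the domain there was at least 15 points lower in DKO1, and its highest bin was at 85.0% in HCT116 and 53.6% in DKO1. These offsets therefore depend on the level of the share and do not show that the edges of the island moved. The 6 unpaired borders of HCT116 bound 3 islands that stayed under 50% in DKO1. These are chr20:7920001-8240000 (61.8 and 45.1%), chr20:21120001-21520000 (55.1 and 37.6%) and chr20:54880001-55280000 (62.9 and 39.9%), each of 4 or 5 bins.

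Cells of DKO1 at like progress differed more from each other on chromosome 20 than cells of HCT116. Pair discordance takes mid-S cells of a line that lie within 5 points of progress and averages, over such pairs, the percent of bins in opposite states. It was 17.6% in HCT116 (4126 pairs) and 22.3% in DKO1 (2312 pairs). It was 20.1 and 26.7% on 20p and 15.7 and 18.8% on 20q. By class it was 5.80 and 8.15% in early bins, 37.2 and 41.6% in middle bins and 9.88 and 19.1% in late bins. The ratio of the lines was thus largest in late DNA, at 1.93. Discordance also depends on the share of cells that have replicated a bin. At 40 to 50 and 50 to 60% progress, late bins were 2.71 and 7.91% replicated in HCT116 and 9.28 and 14.8% in DKO1. How much of the ratio goes with these shares was not tested. Replication width is the span of progress over which a bin goes from 25 to 75% of cells, read from a logistic fit in which each bin is aligned to its own time. HCT116 had a width of 25.6 points and DKO1 of 29.7 points. On a time scale limited to the 20 to 80% of the strata it was 15.2 and 18.9 points. Widths were 17.8 and 18.4 points in early bins, 24.0 and 30.2 in middle bins and 18.1 and 27.7 in late bins. On the limited time scale they were 17.3 and 16.7 points in early bins, where the order of the lines turned, 18.04 and 23.9 in middle bins and 16.1 and 25.03 in late bins. On average, late bins reached only 36.5% in HCT116 and 45.0% in DKO1 in the last stratum. Early bins were already at 74.1 and 74.9% in the first. Much of the 25 to 75% span of these 2 classes was thus not observed, and their widths are extrapolated from the fit. When only cells with at most 1% of code 0 were kept (227 HCT116 and 65 DKO1 cells), the gaps between the lines fell from 4.70 to 2.17 points of discordance and from 4.09 to 2.11 points of width. The width gap of chromosome 20 ranked 12 of 21 chromosomes, where the others ran from 2.28 to 8.005 points.

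Few cells had a chromosome 20 out of step with the rest of their genome. The replicated share of chromosome 20 lay more than 15 points from its line's curve on progress in 2 of 322 cells of HCT116 (0.621%, 0.0753 to 2.23) and in 6 of 207 for DKO1 (2.90%, 1.07 to 6.20), intervals that overlap. Both HCT116 cells lay below the curve, 1 of them by 53.2 points, and of the DKO1 cells 4 lay above and 2 below.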

How the data were processed

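Per the file headers, the authors deposited 1 table with a state code (0, 1 or 2) for each 80 kb bin and S-phase cell, which are calls and not counts. Cell Ranger, SAMtools 1.10 and bedtools 2.26.0 appear in the submitters' processing notes. Neither the model behind the calls and its filters nor the reads per cell were found, and they stand as not given in the sources used here. The depth of a call is therefore unknown. From the codes, shares, domains, runs, borders, widths and discordances were computed with Python 3.11.15, numpy 2.4.6, pandas 2.3.3 and scipy 1.17.1. The functions for shares, runs and, on the limited time scale, widths were tested on simulated data. A bin entered when at least 90% of HCT116 and of DKO1 cells had it called, which held for 27142 autosomal bins with all 695 of chromosome 20. Domains and runs bridge at most 1 missing bin. Named are all runs, the earliest and latest domain of each arm, the 3 domains with the largest difference in each direction, the longest early and late domains and the extreme bins. Exact binomial intervals are at the 95% level. No doublet caller was run. The members, rules and lists were chosen with earlier results of these data known.

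Alternatives changed the bins used, the source and matching of progress, the handling of code 0, the cells used, the thresholds of runs, the drawing of domains, the time scale of the width, the pair window and the smoothing of borders. The alternative with only cells that had no code 0 on chromosome 20 was chosen after seeing the data. No genome annotation of the table's build was used, so bins were not assigned to genes and no sequence is shown. Gene densities came from the RefSeq table of GRCh38.p14.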

Additional observations from a re-analysis of the deposited data

Results flagged for a closer look

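Code 0, which entered no comparison of replication, was more frequent in DKO1. On chromosome 20 it took 1.19% of the calls of DKO1 cells and 0.210% of those of HCT116 cells, a ratio of 5.68. It was concentrated in few cells. The chromosome was free of code 0 in 316 of 322 cells of HCT116 (98.1%, 95.99 to 99.3) and in 191 of 207 of DKO1 (92.3%, 87.8 to 95.5), with exact intervals. Runs of at least 25 bins, or 2 Mb, were found in 3 HCT116 cells (0.932%, 0.193 to 2.70) and 13 DKO1 cells (6.28%, 3.39 to 10.5), and the longest runs were of 140 and 198 bins. In windows of 5 Mb, the share in DKO1 was 0.319 to 0.857% from the start of 20p to 40 Mb and 1.17 to 3.06% beyond it. In HCT116 no window was above 0.555%. The labels do not say what the code stands for, and its source was not tested.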

How the results depend on the processing

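Of the main values recomputed under the alternatives, 123 were classed as kept, 13 as moved and 2 as reversed. Kept did not mean an unchanged size, since the class allowed wide changes in small differences. The middle-bin difference, -2.06 points in the main setting, was classed as kept at -0.256 points with code 0 as unreplicated and strata from 20 to 70% only. It was also classed as kept at -5.23 points without matching. The count of kept values therefore does not show that small differences were stable in size. The late-bin difference stayed between 4.02 and 7.23 points, the early-bin difference between -1.95 and -0.204 and the middle-bin difference between -5.23 and -0.256. The 20p difference stayed between 0.816 and 3.85 and the 20q difference between -2.77 and -0.407. All 9 runs kept their direction wherever their bins were used. The 51840001 to 53360000 run ranged from -32.3 to -28.0 points and the 37760001 to 38720000 run from 24.4 to 30.7. With a 99% minimum on cells called (465 bins of chromosome 20, strata from 30 to 90%), there was 1 run lower in DKO1, with 17 and 12 borders and 10 pairs. In that setting domains 6 and 12, as numbered in the plot of domains by stratum, turned to 3.08 and 1.099 points. With all bins, domain 4 was at -0.729. With code 0 as unreplicated, which also left only the strata from 20 to 70%, domains 12 and 31 were at 1.39 and 0.0142. Without matching, the chromosome differed by -0.664 points, domain 12 by 1.26, and 7 runs were lower. With only cells of at most 1% code 0 (187 and 60 cells in the strata from 30 to 70%), the chromosome differed by -0.689 points, the width gap was 2.11 and the discordance gap 2.17, and domains 4, 12, 19, 20, 28 and 35 were at -3.14, 4.24, 0.944, -0.0874, -1.62 and 6.14. With no code 0 on chromosome 20, domain 4 was at -0.0544. At 10 points there were 8 runs higher and 8 lower, at 20 points 3 and 1, and with 3 bins 8 and 9. Fewer bins, cells or a different rule entered each of these by construction, and the cause was not tested further.

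No paired analysis was possible because each line has 1 S-phase library. The strata at 20 to 30% and 70 to 80% hold 12 and 10 DKO1 cells, which limits the values there, and the depth per cell is unknown.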
